A study of Mus musculus with 12 samples.

Results

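The genes described here are 40 genes of protein folding and stress in the endoplasmic reticulum (ER), followed in mouse lung across 4 treatments on Agilent 1-colour arrays. They were chosen by name, and each was found on the array through the RefSeq transcript of its probes. Of the 40, 38 had a probe; Dnajb11 and Pdia3 had none. Each of the 38 was marked as detected above background on all 12 arrays, and they stand among 21856 genes or unnamed transcripts that were tested. By role the 40 are 11 lumenal chaperones and co-chaperones, 5 disulphide isomerases and oxidases, 6 genes of translocation and signal peptide processing, 8 of ER-associated degradation, 3 stress sensors and 7 of the branch that runs through ATF4 and CHOP.

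The mice were FVB/NJ (FVB/N in the protocol), labelled female, and 7 weeks old at the start. The PBS group received weekly PBS for 16 weeks. The LPS group received lipopolysaccharide, the endotoxin of Gram-negative bacteria, at 5 µg per mouse into the nose each week over the same 16 weeks. The NNK group received NNK, a nicotine-derived nitrosamine of tobacco that causes lung tumours in mice, at 3 mg per mouse by intraperitoneal injection over the first 4 weeks; the labels call that schedule both biweekly and semi-weekly. The LPS/NNK group received both agents. Each group had 3 arrays, which keep the replicate numbers of the labels (PBS 1, 2 and 3, LPS 1, 5 and 6, NNK 2, 3 and 5, LPS/NNK 2, 3 and 6). Lungs were taken a week after the last treatment. The labels do not say whether NNK mice, whose treatment ended earlier, were as old at that point as the others, so age and treatment cannot be told apart in comparisons with NNK alone. No weekly PBS is listed for the NNK group, so weekly dosing and treatment cannot be told apart in those comparisons either. RNA was from whole lung, in which more cells of a type and more RNA per cell cannot be told apart.

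Secreted and membrane proteins fold in the ER with the help of chaperones such as BiP (Hspa5), are oxidised by disulphide isomerases, and are sent back to the cytosol for degradation when folding fails. The sensors of the ER membrane, IRE1 (Ern1), PERK (Eif2ak3) and ATF6, answer an excess of unfolded protein. IRE1 splices the Xbp1 messenger RNA and ATF6 is cleaved to a transcription factor, and both raise chaperones and degradation genes; PERK slows translation and favours ATF4, which raises CHOP (Ddit3), Trib3 and genes of amino acid supply. Antibody-secreting plasma cells are known for high levels of this machinery.

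The ER stress response element (ERSE) is the sequence through which ATF6 and XBP1 are known to act on chaperone genes. It was searched as CCAAT, 9 free bases and CCACG on both strands, from 250 bases before to 50 after the transcription start in RefSeq promoter windows of GRCm38.p6. Of 35 members with a window, 9 held it (25.7%), against 37 of 27025 genes in the table (0.137%). The members were chosen by name partly because many are textbook targets of this response, so the share describes the choice. The 10 matches, shown because they carry what these promoters share, read as follows on the strand of the motif, with its fixed letters in capitals. The letters in lower case were free in the search.
Hspa5, chr2:34772025-34772043, + strand: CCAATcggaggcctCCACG
Hsp90b1, chr10:86705638-86705656, - strand: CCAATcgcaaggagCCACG
Hsp90b1, chr10:86705533-86705551, + strand: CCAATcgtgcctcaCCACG
Calr, chr8:84847075-84847093, + strand: CCAATgagggtcgaCCACG
Canx, chr11:50325800-50325818, - strand: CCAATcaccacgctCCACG
Dnajc3, chr14:118937827-118937845, + strand: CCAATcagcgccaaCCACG
Creld2, chr15:88819520-88819538, - strand: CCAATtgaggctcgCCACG
Pdia6, chr12:17266491-17266509, + strand: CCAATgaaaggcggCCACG
Ero1b, chr13:12565682-12565700, - strand: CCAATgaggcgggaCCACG
Syvn1, chr19:6046532-6046550, + strand: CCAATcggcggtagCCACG

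Calr, Canx, Creld2, Dnajc3, Ero1b, Hspa5, Pdia6 and Syvn1 each held 1 match and Hsp90b1 held 2. The shorter ERSE-II, searched as ATTGG, 1 free base and CCACG, was found in Herpud1 and Dnajb11 (5.71% of the members with a window, against 0.0444% of genes). The UPR element TGACGTGG was in 0 of 35 windows and in 0.714% of genes. The composite C/EBP and ATF element through which ATF4 is known to act, searched as TGATGNAA, was in 5 members, Herpud1, Atf3, Trib3, Chac1 and Asns (14.3%, against 4.51% of genes). A match describes letters only, and a window without one says nothing about the factor. No match of one motif overlapped a match of another in the members. The 200 bases before the start are printed for 5 genes with matches: Hspa5, the classical target, Creld2 and Dnajc3, which were called between treated groups below, Herpud1, which held both an ERSE-II and an ATF4 composite match, and Chac1, of the ATF4 branch. Capitals mark the fixed letters of ERSE and whole matches of the other motifs, and a match to the opposite strand appears as its reverse complement.
Hspa5, chr2:34771890-34772089, + strand: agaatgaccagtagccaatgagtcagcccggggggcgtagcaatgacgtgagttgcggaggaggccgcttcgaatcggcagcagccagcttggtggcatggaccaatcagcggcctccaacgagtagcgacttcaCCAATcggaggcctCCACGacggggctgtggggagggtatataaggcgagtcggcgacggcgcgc
Creld2, chr15:88819446-88819645, + strand: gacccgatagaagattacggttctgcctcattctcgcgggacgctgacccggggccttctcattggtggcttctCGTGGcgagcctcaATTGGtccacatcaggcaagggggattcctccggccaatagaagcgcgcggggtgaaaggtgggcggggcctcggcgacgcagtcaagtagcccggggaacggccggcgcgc
Dnajc3, chr14:118937732-118937931, + strand: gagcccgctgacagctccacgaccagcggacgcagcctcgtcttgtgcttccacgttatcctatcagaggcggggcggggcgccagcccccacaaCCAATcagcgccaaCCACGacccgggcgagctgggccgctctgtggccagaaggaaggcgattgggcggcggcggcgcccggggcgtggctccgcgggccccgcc
Herpud1, chr8:94386229-94386428, + strand: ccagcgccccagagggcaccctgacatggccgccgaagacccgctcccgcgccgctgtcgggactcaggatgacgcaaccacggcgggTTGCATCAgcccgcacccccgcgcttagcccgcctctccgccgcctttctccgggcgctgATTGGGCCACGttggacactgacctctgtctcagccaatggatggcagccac
Chac1, chr2:119351042-119351241, + strand: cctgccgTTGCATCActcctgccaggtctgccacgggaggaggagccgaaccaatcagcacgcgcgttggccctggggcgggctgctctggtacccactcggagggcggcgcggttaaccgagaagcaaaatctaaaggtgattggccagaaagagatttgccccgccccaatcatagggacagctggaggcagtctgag

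Levels are log2 of the background-subtracted signal minus the 75th percentile of the array, so 0 is the brightness below which 75% of probes lie. A gene was called when its adjusted p in limma, over all 21856 items of a comparison, was under 0.05. The 75th percentile signal was 699 to 984 on the PBS arrays and 183 to 510 on the other 9, and 70.2% to 73.1% of spots on PBS arrays against 55.6% to 67.5% on the others were well above background. PBS arrays correlated with treated arrays at 0.878 to 0.933 over all items and with each other at 0.978 to 0.984. On PBS 1 and PBS 2, Xist was not above background and the Y-linked Ddx3y, Eif2s3y, Kdm5d and Uty were, which goes against the label female; on the other 10 arrays the reverse held. Slides were shared in part: PBS 3 with NNK 2, NNK 3 with LPS/NNK 2, NNK 5 with LPS/NNK 3, and PBS 1 with LPS/NNK 6. Each LPS array and PBS 2 was the sole array of its slide here, and PBS 2 was scanned on another day than the rest. The lung markers fixed for alveolar type 2 cells (10 of 10) and club cells (5 of 5 with a probe) were above background on all 12 arrays, and so were 9 of 9 heart muscle markers. The labels do not say that arrays came from separate mice beyond giving separate samples, so the spread between them may be in part technical.

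Weekly LPS on top of NNK was compared with NNK alone first, because PBS is in neither group. Creld2, Manf, Dnajc3 and Spcs2 were higher in LPS/NNK than in NNK, and Ppp1r15a was lower. These are 5 of 38 members, 4 higher and 1 lower. Over all items, 17.3% were called in either direction, 7.92% higher and 9.34% lower. With both directions pooled, the 5 called members are not a larger share than the background. Taken by direction, the 4 higher calls were a somewhat larger share than over all items, and the 1 lower call a smaller one. LPS/NNK arrays lay wholly above NNK arrays for 14 of the 38 members and wholly below for 6. The same held for 15.7% and 20.2% of all items. The median difference was 0.25 over the 38 members and -0.06 over all items.

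Creld2 codes for an ER-resident protein rich in cysteines that is induced by ER stress. Its level was 4.75, 5.01 and 5.35 on the LPS/NNK arrays, and 3.77, 4.05 and 4.10 on the NNK arrays. Every LPS/NNK array was above every NNK array. The difference was 1.06 ± 0.23 (SE) on the log2 scale, or 2.09-fold, with a 95% interval of 0.56 to 1.56 and an adjusted p of 0.00888. Its levels on the LPS arrays, 4.91, 4.95 and 4.72, lay close to those of LPS/NNK, and its levels on the PBS arrays, 4.20, 3.86 and 4.21, close to those of NNK.

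Manf, which codes for a secreted and ER-resident neurotrophic factor that binds BiP, gave the same order of groups. The LPS/NNK arrays read 3.74, 3.74 and 3.87 and the NNK arrays 2.75, 3.06 and 2.96. The groups did not overlap, and the difference was 0.86 ± 0.21 (adjusted p 0.0141). On LPS arrays it was 3.67, 3.64 and 3.42, and on PBS arrays 3.02, 3.01 and 2.81. LPS and LPS/NNK arrays were all above NNK and PBS arrays.

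Dnajc3 (P58IPK), a lumenal co-chaperone of BiP, showed another order. It was 2.01, 1.68 and 2.10 on the LPS/NNK arrays and 0.90, 1.16 and 0.86 on the NNK arrays, a difference of 0.96 ± 0.27 (adjusted p 0.0282). PBS arrays, at 1.97, 1.72 and 1.67, lay beside LPS/NNK and not beside NNK. LPS arrays spread widely, at 1.38, 1.58 and 0.61, with LPS 6 the lowest. All 4 Dnajc3 probes that passed the filter were higher in LPS/NNK than in NNK, by 0.48 to 1.53.

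Spcs2, a subunit of the signal peptidase that trims entering proteins, was likewise lowest in NNK. It was 3.34, 3.91 and 3.90 on the LPS/NNK arrays and 2.47, 2.91 and 2.82 on the NNK arrays, a difference of 0.99 ± 0.27 (adjusted p 0.0244). Its second probe gave 1.002. PBS arrays read 3.74, 3.74 and 4.04, near the LPS/NNK arrays, and LPS arrays 3.57, 3.13 and 2.76, again with LPS 6 lowest. The groups LPS/NNK and NNK did not overlap.

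Ppp1r15a (GADD34) codes for the phosphatase subunit that reverses the translational block set by PERK. It was 1.93, 1.71 and 1.88 on the NNK arrays and 1.35, -0.34 and -0.27 on the LPS/NNK arrays. The difference was -1.59 ± 0.43 (adjusted p 0.0247), and LPS/NNK 2 stood well above its group. LPS arrays covered most of the range, at 0.97, 1.91 and 0.63, and PBS arrays read 1.09, 0.76 and 1.58.

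**Figure D1:**
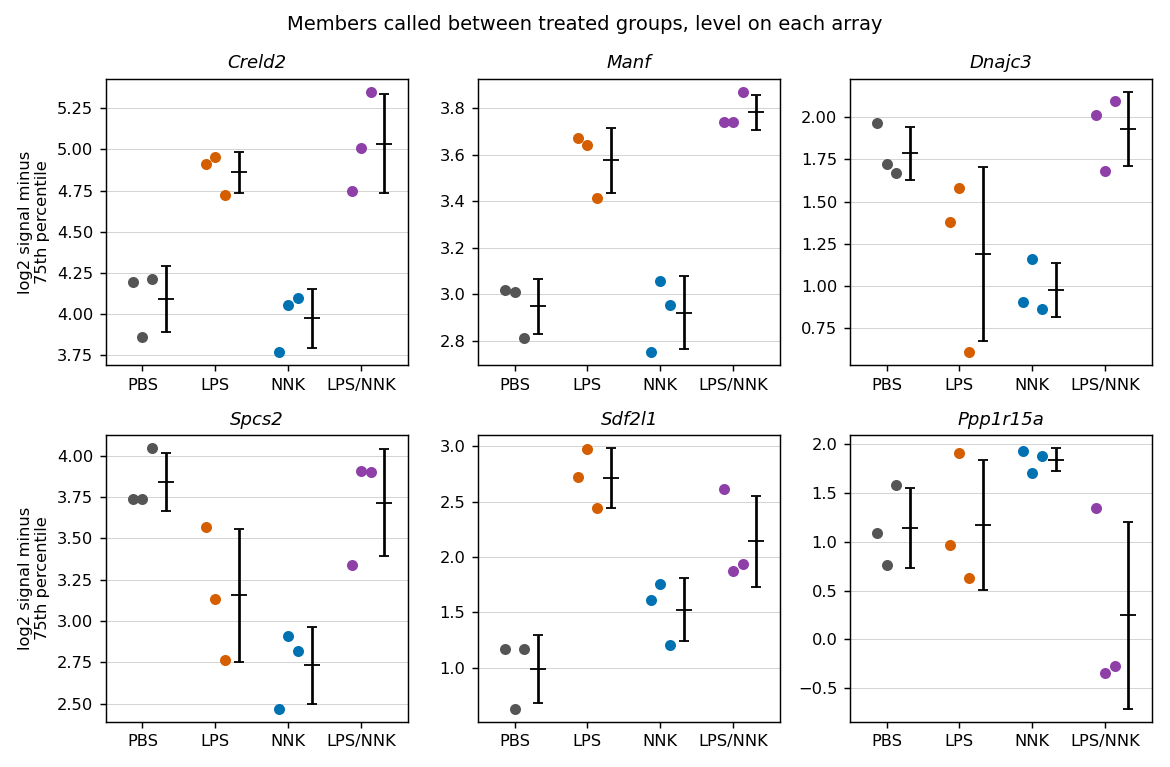
Level of 6 members on each array (log2 signal minus the 75th percentile of the array, y axis) in the 4 groups (x axis); points are arrays, and the bar beside them is the mean ± SD of 3 arrays. Creld2 and Manf are high in LPS and LPS/NNK, Dnajc3 and Spcs2 are low in NNK, and LPS/NNK 2, the leftmost LPS/NNK point, lies apart for Ppp1r15a.

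The 5 calls depended on single arrays. Without LPS/NNK 6, or without NNK 2, 1 of the 5 remained called, Creld2, without NNK 3 there were 2 calls, and without NNK 5 or LPS/NNK 3 there were 3. In that order of arrays, 9.26%, 7.46%, 7.21%, 13.5% and 8.17% of all items were called. Without LPS/NNK 2 there were 10, of which 7 were higher and 3 lower, while the share over all items went to 26.6%. With normexp background correction, or with the slide as a fixed effect, which leaves 2 residual degrees of freedom, there were 0, with 1.62% and 11.9% of all items called. The differences of Creld2, Manf, Dnajc3, Spcs2 and Ppp1r15a were then 1.37, 1.09, 1.01, 1.25 and -1.06 with normexp, and 0.96, 0.77, 0.85, 0.96 and -1.37 with the slide. NNK and LPS/NNK arrays shared 2 slides, and within those the difference of LPS/NNK 2 from NNK 3 and of LPS/NNK 3 from NNK 5 could be read directly. It was 0.70 and 0.91 for Creld2, 0.68 and 0.78 for Manf, 0.86 and 0.82 for Dnajc3, 0.43 and 1.09 for Spcs2, and -0.36 and -2.22 for Ppp1r15a. All 5 called members kept their sign on both slides, which was fixed in advance because their LPS/NNK and NNK arrays did not overlap. Of the 38 members, 27 had the sign of their mean difference on both slides, and that mean includes these arrays.

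Of the lumenal chaperones, 3 of 10 tested were higher and 0 lower in LPS/NNK than in NNK. Hspa5 (BiP), the main chaperone of the ER, was 4.96, 5.14 and 5.30 on the LPS/NNK arrays and 4.24, 4.71 and 4.73 on the NNK arrays. The groups did not overlap, but its difference of 0.57 ± 0.25 was not called (adjusted p 0.129). Calr, the lectin chaperone calreticulin, had the smallest difference of the group, -0.03 ± 0.26. Of the chaperones, 6 had LPS/NNK arrays wholly above NNK arrays and 1 wholly below, which over all items held for 15.7% and 20.2%.

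None of the 4 disulphide isomerases and oxidases tested was called in LPS/NNK against NNK. Pdia6 had the largest difference, 0.73 ± 0.26 (adjusted p 0.0691), and Pdia4 the smallest, 0.42 ± 0.30. Of the 6 translocation genes, Spcs2 alone was called, and Ssr3, of the translocon-associated complex, had the smallest difference, 0.15 ± 0.28. Sec61a1, the channel itself, differed by 0.60 ± 0.29 on its brightest probe and by -0.44 and -0.70 on its other probes, so its direction was not settled.

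None of the 8 degradation genes was called in LPS/NNK against NNK. Edem1, a lectin that takes misfolded glycoproteins out of the folding cycle, had the largest difference. It was 2.67, 2.82 and 2.87 on the LPS/NNK arrays and 1.94, 2.14 and 2.13 on the NNK arrays. The groups did not overlap, the difference was 0.72 ± 0.24 and the adjusted p 0.0537. Averaging its probes made it a call (0.88, adjusted p 0.0124). Herpud1, which organises the degradation complex, had the smallest difference, 0.12 ± 0.30.

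Among the sensors, Atf6 differed by 0.51 ± 0.24 and Ern1 by 0.18 ± 0.23, and none of the 3 was called. In the ATF4 and CHOP branch, Ppp1r15a alone was called. Ddit3 (CHOP) differed by 0.32 ± 0.32 and Trib3, a pseudokinase induced by CHOP, by -0.02 ± 0.29 (its second probe gave -1.35).

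LPS alone was also set against NNK alone. These results share the NNK arrays with those above. Sdf2l1 and Creld2 were higher in LPS, and 0 members were lower; over all items 6.2% were called, 2.73% higher and 3.47% lower. LPS arrays lay wholly above NNK arrays for 8 members and wholly below for 1, and for 8.56% and 15.8% of all items. Sdf2l1, a lumenal partner of the DNAJ co-chaperones, was 2.72, 2.98 and 2.44 on the LPS arrays and 1.61, 1.76 and 1.21 on the NNK arrays. Every LPS array was above every NNK array, and the difference was 1.19 ± 0.28, or 2.28-fold (adjusted p 0.0227). On the LPS/NNK arrays it was 2.62, 1.87 and 1.94, between LPS and NNK in its mean, and on the PBS arrays 1.17, 0.63 and 1.17. Creld2 differed by 0.89 ± 0.23 (adjusted p 0.038). Without LPS 1, LPS 5 or any 1 of the NNK arrays, neither was called. Manf, at 0.65 ± 0.21 (adjusted p 0.0826), and Edem1, at 0.71 ± 0.24 (adjusted p 0.102), missed the threshold.

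NNK on top of LPS was read from LPS/NNK against LPS, where limma called 0 of 38 members, with 4.1% called over all items (2.84% higher, 1.26% lower). LPS/NNK arrays lay wholly above LPS arrays for 4 members and wholly below for 2, and for 12.9% and 8% of all items. At an unadjusted p under 0.05, 4 were higher and 3 lower. For Creld2 the difference was 0.17, with a 95% interval from -0.33 to 0.67, and for Manf 0.21, from -0.24 to 0.65. Sdf2l1 differed by -0.57, from -1.17 to 0.03.

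**Figure D2:**
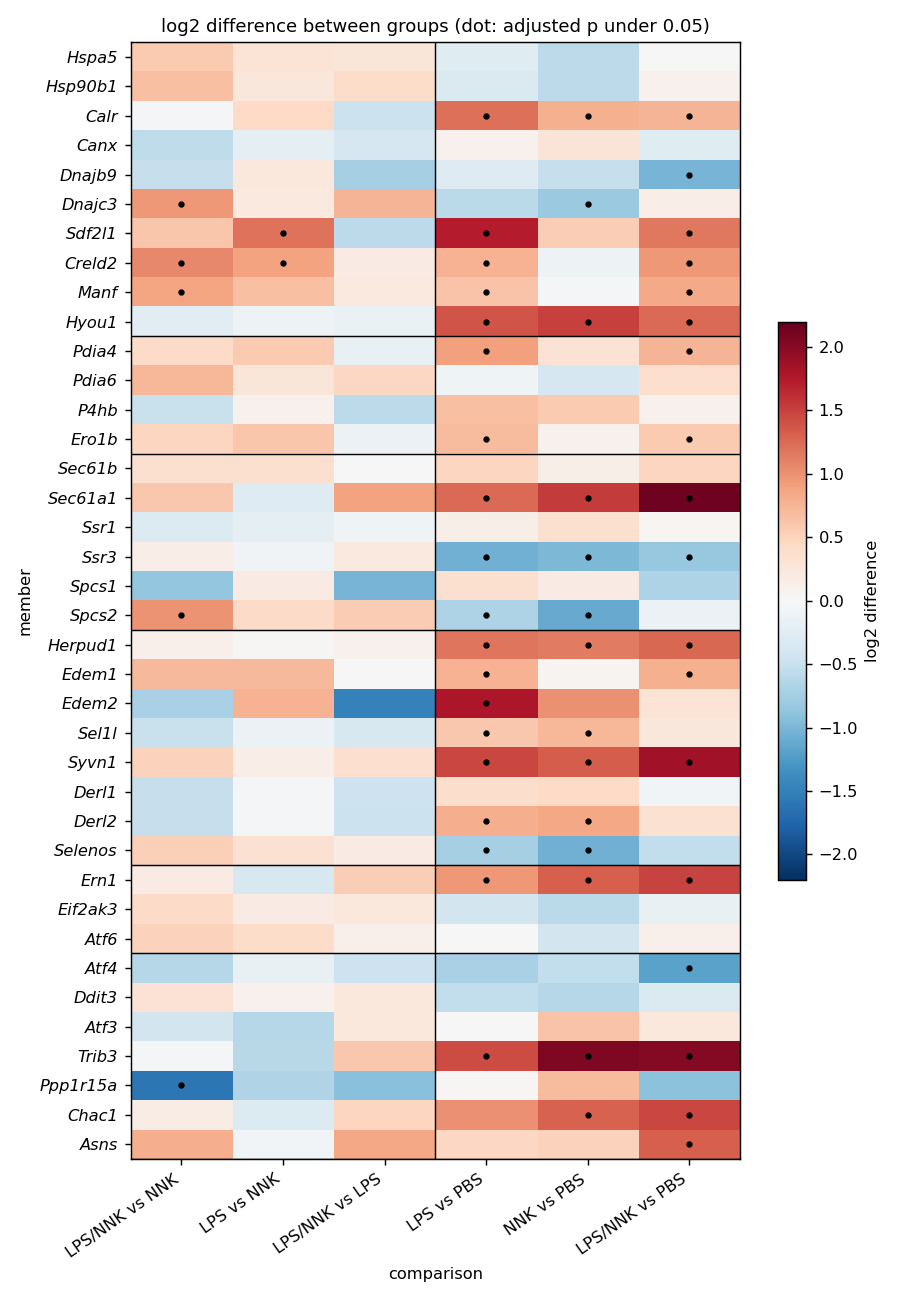
Log2 differences of the 38 members (rows, by role, separated by lines) in 6 comparisons (columns; red higher and blue lower in the group named first), with a dot where the adjusted p was under 0.05. The left 3 columns, between treated groups, hold 5, 2 and 0 dots; the right 3, which share the PBS arrays, hold 19, 14 and 18.

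The spread within the LPS/NNK group decided part of these results. LPS/NNK 2 correlated with LPS/NNK 3 and 6 at 0.965 to 0.971 over all items and with the LPS arrays at 0.969 to 0.980, while LPS/NNK 3 and 6 correlated at 0.987. In 5 members LPS/NNK 2 lay at least 1 log2 unit from the mean of the other 2, and LPS/NNK 3 and 6 were that far apart in 0 members. LPS/NNK 2 was also brighter, with a 75th percentile signal of 510 against 192 and 183 on LPS/NNK 3 and 6. Of its spots 66.3% were well above background, against 57.3% and 56.4%. The part of this in its separation was not tested. Edem2, of the same family as Edem1, was 2.39 on LPS/NNK 2 and 0.26 and -0.21 on the others, against 1.75, 1.53 and 1.29 in NNK. P4hb, a disulphide isomerase, was 5.40 against 4.36 and 4.08. Both stood at or above the NNK arrays on LPS/NNK 2 and below them on the other arrays.

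Asns, which makes asparagine and is an ATF4 target, went the other way. It was 2.72 on LPS/NNK 2, close to the NNK arrays (2.65, 2.73 and 2.74), and 3.81 and 4.00 on LPS/NNK 3 and 6. Chac1, which degrades glutathione and is an ATF4 target, was -0.05 on LPS/NNK 2 and 1.33 and 2.26 on the others. Without LPS/NNK 2, Asns was higher in LPS/NNK than in NNK by 1.20 (adjusted p 0.00553), Edem2 was lower by a log2 difference of -1.50 (adjusted p 0.00308) and P4hb was lower at -0.88 (adjusted p 0.0203). These genes were picked because LPS/NNK 2 lay apart in them, so leaving it out narrows their spread. Their adjusted p-values are not independent of that choice. Against LPS, 6 members were called without LPS/NNK 2, Asns and Sec61a1 higher, and Edem2, P4hb, Ppp1r15a and Sdf2l1 lower, with 22.1% called over all items. The other probes of Sec61a1 differed from LPS by -0.90 and -0.72 over all arrays, against 0.88 on its brightest. The other members called against NNK without that array were Edem1 at 0.78 and Sec61a1 at 0.85, beside the first 5.

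**Figure D3:**
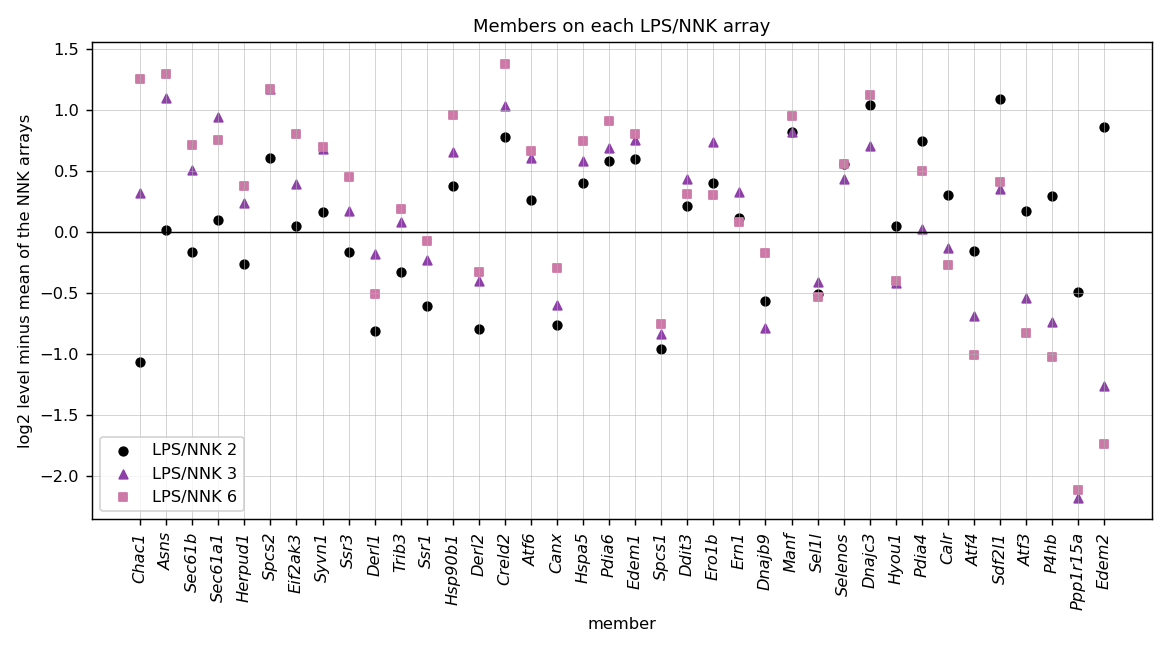
Level of each member on each LPS/NNK array minus the mean of the NNK arrays (log2, y axis), with members ordered by how far LPS/NNK 2 lies from the mean of LPS/NNK 3 and 6. At the left (Chac1, Asns) LPS/NNK 2 is lowest and at the right (Ppp1r15a, Edem2) highest, and for Manf all 3 arrays lie close together.

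Against PBS, Trib3, Sec61a1, Syvn1, Herpud1, Ern1, Hyou1 and Calr were higher in all 3 treated groups and Ssr3 was lower in all 3. Of these 8, Trib3 was the one called in all 3 with normexp background correction as well. Normexp ended all 3 calls of Hyou1, Calr and Herpud1, the LPS and NNK calls of Sec61a1 (1.11 and 0.81), the NNK call of Syvn1 (0.72), the LPS call of Ern1 (0.92), and the LPS and LPS/NNK calls of Ssr3 (-1.18 and -1.07). LPS against PBS called 16 members higher and 3 lower, where 56% of all items were called (26.1% higher, 29.9% lower). NNK against PBS called 10 higher and 4 lower, with 51.5% of all items called (27.8% and 23.7%). LPS/NNK against PBS called 15 higher and 3 lower, with 55.1% called (27.9% and 27.1%). Arrays lay wholly above PBS for 18 members in LPS, 17 in NNK and 14 in LPS/NNK (29.5%, 35.2% and 30.3% of all items) and wholly below for 4, 8 and 5 (33%, 32.4% and 31.6%). The excess of higher calls depended on the scaling and background correction of the arrays. With quantile normalization the splits were 9 higher and 9 lower for LPS, 7 and 11 for NNK, and 9 and 10 for LPS/NNK. With the 75th percentile taken over probes detected on all arrays they were 9 and 7, 6 and 12, and 10 and 7, and with normexp 4 and 0, 2 and 5, and 5 and 2. Of all items, 56.7%, 52.1% and 55.5% were called with quantile normalization, and 57.1%, 53.5% and 58.4% with that percentile. With normexp the shares fell to 18.9%, 36.7% and 29.5%. The 3 comparisons share the PBS arrays, and without PBS 1 and PBS 2 each called 6 members. Without NNK 2, NNK against PBS called 9, with 39.7% of all items called.

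Trib3 had the largest difference in NNK. It was -0.63, -0.55 and -1.09 on the PBS arrays, 0.41, 1.31 and 0.34 on the LPS arrays, 1.42, 1.11 and 1.35 on the NNK arrays and 0.96, 1.37 and 1.48 on the LPS/NNK arrays. All 9 treated arrays were above all PBS arrays. The difference from PBS was 1.44 ± 0.29 in LPS (adjusted p 0.00118), 2.05 ± 0.29 in NNK (adjusted p 0.000253) and 2.03 ± 0.29 in LPS/NNK (adjusted p 9.67e-05). It stayed called in all 3 with normexp, with quantile normalization, with the percentile over detected probes and without PBS 1 and PBS 2. Its second probe gave 1.15, 1.62 and 0.27.

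Syvn1 (HRD1), the ubiquitin ligase of ER-associated degradation, was 4.07 to 4.25 on the PBS arrays, 5.02 to 6.01 on the LPS arrays, 5.22 to 5.81 on the NNK arrays and 5.66 to 6.19 on the LPS/NNK arrays. The differences were 1.48, 1.33 and 1.85, each ± 0.29, and its second probe gave 1.39, 1.13 and 1.22. Herpud1 differed by 1.18, 1.15 and 1.27, each ± 0.30, which were not called with quantile normalization (0.55, 0.55 and 0.45). Ern1, the sensor and nuclease IRE1, lay between -3.13 and -2.89 on the PBS arrays and between -1.65 and -1.41 on the LPS/NNK arrays, a difference of 1.49 ± 0.23 (adjusted p 0.000174), beside 0.96 in LPS and 1.31 in NNK.

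Sec61a1 differed by 1.25, 1.54 and 2.14, each ± 0.29, on its brightest probe, while another probe gave 0.07, -0.39 and -0.83. Hyou1, a large lumenal chaperone, differed by 1.39, 1.50 and 1.24, each ± 0.33. Calr differed by 1.22, 0.78 and 0.75, each ± 0.26, and all 3 calls were lost with quantile normalization (0.60, 0.19 and -0.02, the last of the other sign) and with normexp (1.04, 0.17 and 0.49). Ssr3 was 3.60 to 3.84 on the PBS arrays and 2.27 to 3.18 on the 9 treated arrays, with differences of -1.06, -0.99 and -0.84.

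**Figure D4:**
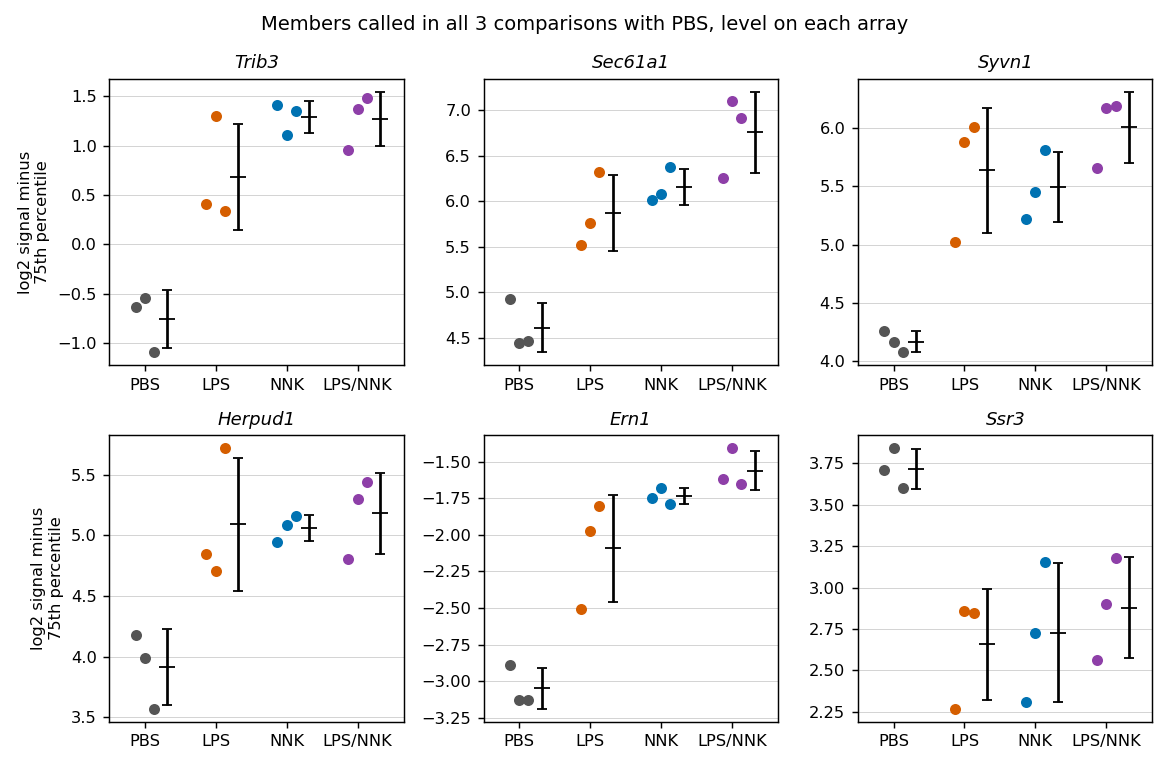
Level of 6 members that were called in all 3 comparisons with PBS, on each array (log2 signal minus the 75th percentile of the array, y axis), by group (x axis); the bar beside the points is the mean ± SD of 3 arrays. For each gene the PBS arrays lie on one side of the 9 treated arrays, below them for 5 genes and above them for Ssr3.

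A second set of members was higher than PBS in LPS and LPS/NNK and was not called in NNK. These were Sdf2l1, Creld2, Manf, Pdia4, Ero1b and Edem1, 6 in number. Leaving out single arrays ended calls of all but Sdf2l1. Pdia4 lost its LPS call without PBS 1, PBS 2 or LPS 6, and its LPS/NNK call without PBS 1, PBS 2, LPS/NNK 2 or LPS/NNK 6. Ero1b lost its LPS/NNK call without PBS 1, PBS 2, PBS 3 or LPS/NNK 3. Edem1 lost both calls without PBS 1, and its LPS call without LPS 6. Creld2 lost its LPS call without PBS 2, and Manf its LPS call without PBS 3 or LPS 5. Sdf2l1 differed from PBS by 1.73 ± 0.28 in LPS (adjusted p 0.000293), by 1.15 ± 0.28 in LPS/NNK and by 0.54 ± 0.28 in NNK. Of the 6, the difference between LPS and NNK themselves was called for Sdf2l1 and Creld2, and with the mean of all probes for Edem1 (1.12, adjusted p 0.00579) and Ero1b (1.14, adjusted p 0.00627) too. With quantile normalization 4 of the 6, Creld2, Manf, Edem1 and Pdia4, were not called against PBS in either group (0.13, 0.12, 0.38 and 0.59 in LPS, 0.11, 0.18, 0.30 and 0.37 in LPS/NNK), and Creld2 was called lower in NNK, at -0.73 (adjusted p 0.0134).

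A few members were lower than PBS. Spcs2 and Selenos, a selenoprotein of the degradation complex, were lower in NNK, at -1.11 ± 0.27 and -1.05 ± 0.27, and in LPS, at -0.69 and -0.72. Both LPS calls were lost without any 1 of PBS 1, PBS 2, PBS 3, LPS 5 and LPS 6. Without LPS 6 the adjusted p was 0.145 for Spcs2 and 0.134 for Selenos. With normexp, 0 members were called lower in LPS. Dnajc3 was called lower in NNK and in neither other group, at -0.81 ± 0.27 (adjusted p 0.0228). That call was lost without PBS 1, NNK 2 or NNK 5 (adjusted p 0.0792, 0.0668 and 0.0632). Dnajc3 was called lower in LPS too with quantile normalization (-0.89, adjusted p 0.0129), with the percentile over detected probes (-0.88, adjusted p 0.0171) and without LPS 5 (-0.79, adjusted p 0.0363). Atf4 was lower in LPS/NNK, at -1.17 ± 0.31 (adjusted p 0.00581), and its levels were 0.998, 0.46 and 0.14 there and 2.09, 1.68 and 1.35 in PBS. Dnajb9, a BiP co-chaperone that is a known XBP1 target, was lower in LPS/NNK at -1.01 ± 0.31 (adjusted p 0.0128). That call was lost without PBS 2 or LPS/NNK 3 (adjusted p 0.0541 and 0.0539). Its other probes gave -1.23 and -0.83 in LPS/NNK, -1.05 and -1.09 in LPS, and -1.02 and -1.23 in NNK. The brightest probe gave -0.28 in LPS and -0.50 in NNK.

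Of the 38 members, 14 were called in none of the 3 comparisons with PBS. They included Hspa5 and Ddit3, the genes most used to read the unfolded protein response. Hspa5 was 5.24, 5.10 and 5.06 on the PBS arrays, and its differences were -0.27 in LPS, -0.57 in NNK and 0.00 in LPS/NNK, each ± 0.25. With quantile normalization it was called lower in all 3, at -1.07, -1.33 and -0.99 (adjusted p 0.00367, 0.00125 and 0.0059), and with the percentile over detected probes in NNK, at -0.86 (adjusted p 0.0122). Ddit3 was 0.60, 0.59 and 0.29 on the PBS arrays and 0.07, 0.29 and 0.17 on the LPS/NNK arrays, a difference of -0.31 with a 95% interval from -0.99 to 0.37. With the percentile over detected probes Ddit3 was called lower in LPS, at -0.82 (adjusted p 0.0484), and in NNK, at -0.92 (adjusted p 0.0326).

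Whether LPS made the same difference with and without NNK was asked with the interaction, the LPS/NNK minus NNK difference less the LPS minus PBS difference. No weekly PBS is listed for NNK, so weekly dosing enters the first difference and not the second, and the interaction does not isolate LPS. It was positive for Spcs2, Dnajc3, Selenos and Ssr3 and negative for Edem2, Hyou1, Trib3, Derl2, Calr, Sdf2l1 and Sel1l, 4 and 7 of 38 members. Over all items 38.7% were called, 20.1% positive and 18.6% negative. Spcs2 was higher by 0.99 with LPS on top of NNK and lower, at -0.69, with LPS on top of PBS. Without PBS 1 and PBS 2, Spcs2 (1.87) and Trib3 (-1.80) were the 2 that remained.

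Of the 9 members with an ERSE match, 2 were called in LPS/NNK against NNK, Creld2 and Dnajc3, both higher; 7 had a positive difference, and the median was 0.57. Of 24 tested members with a window and no match, 1 was higher and 1 lower, and the median was 0.13. Against PBS, medians with and without an ERSE match were 0.10 and 0.46 in LPS and -0.12 and 0.43 in NNK. In LPS/NNK they were 0.37 and 0.24. The 5 members with an ATF4 composite match had a median difference from PBS of 0.997 in LPS, 1.15 in NNK and 1.31 in LPS/NNK, and 4 of them (Herpud1, Trib3, Chac1 and Asns) were called higher in LPS/NNK, where 27.9% of all items were. Of 28 tested members with a window and no such match, 8 were called higher in LPS/NNK, with a median of 0.12. In LPS/NNK against NNK, medians with and without an ATF4 composite match were 0.12 and 0.34. These are descriptions of small sets whose promoters were known when the members were chosen.

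Beyond the members, 99 of 104 other genes of the same pathways were tested. In LPS/NNK against NNK, 18 were higher and 4 lower (18.2% and 4.04%, beside 7.92% and 9.34% of all items), with a median of 0.24. The 4 with the smallest p were Derl3, a degradation gene of secretory cells, at 3.22 ± 0.25, Mthfd2 and Phgdh, enzymes of one-carbon and serine metabolism and ATF4 targets, at 1.84 ± 0.39 and 1.32 ± 0.30, and Erp29, a lumenal folding factor, at 1.29 ± 0.30. Of the ATF4 targets in that list, 7 of 22 were higher and 0 lower. In LPS against NNK, Derl3 was higher, at 3.46 ± 0.25, and Atf5 lower, at -1.11 ± 0.27, and no others were called. In LPS/NNK against LPS, 2 were higher and 5 lower, among them Xbp1 at -1.51 ± 0.30 and Prdx4, an ER peroxidase, at -1.08 ± 0.26, with Aldh1l2 at 1.51 ± 0.30. Against PBS, 37 were higher and 17 lower in LPS, 32 and 13 in NNK, and 38 and 15 in LPS/NNK. The same comparisons called 26.1% and 29.9%, 27.8% and 23.7%, and 27.9% and 27.1% of all items. Slc7a5, an amino acid transporter, differed by 2.78, 2.55 and 2.91.

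Markers of plasma cells also differed between arrays with and without LPS. Of 16 markers, 14 were tested; 6 were higher and 1 lower in LPS/NNK than in NNK, and 6 higher and 0 lower in LPS than in NNK. Derl3, Txndc5, Fkbp11 and Sec11c are both in this list and among the other pathway genes. Without those, the mean level of the 10 remaining markers was -0.90 to -0.41 on the PBS arrays, 0.92 to 1.46 on the LPS arrays, -0.37 to -0.33 on the NNK arrays and 0.61 to 0.97 on the LPS/NNK arrays. All 6 arrays with LPS were above all 6 without it. Creld2, Manf, Sdf2l1, Edem1 and Ero1b had that order too, but its share over all items was not counted. The same held for the mean level of the macrophage markers, at least 2.77 with LPS and at most 1.40 without. It held for the T cell markers too, at least 1.05 with LPS and at most 0.05 without. Jchain, the joining chain of secreted antibodies, had a mean level of 1.36 in PBS, 6.33 in LPS, 1.81 in NNK and 5.81 in LPS/NNK. Macrophage markers (7 of 11 higher, 0 lower) and T cell markers (8 of 11 higher, 0 lower) moved in LPS/NNK against NNK too; alveolar type 2 markers gave 0 higher and 1 lower of 10, club markers 0 and 2 of 5, neutrophil markers 1 and 1 of 9, endothelial markers 0 and 1 of 9 and heart muscle markers 0 and 4 of 9. The part of these cells in the members' differences was not tested.

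**Figure D5:**
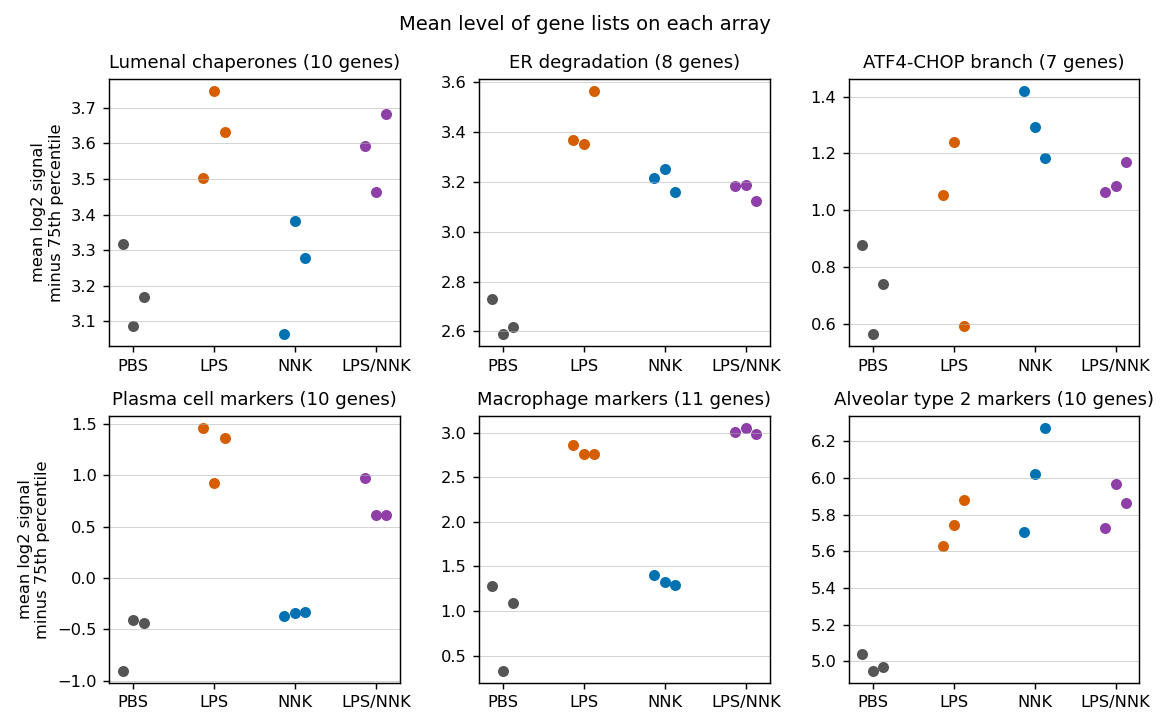
Mean level on each array (log2 signal minus the 75th percentile of the array, y axis) of 3 role groups of members and 3 marker lists, by group (x axis), each point an array; plasma cell markers are shown without the genes that are also in the ER lists. Plasma cell and macrophage markers are high on the 6 arrays with LPS, and the lumenal chaperones are highest on those arrays as well, while the degradation genes and alveolar type 2 markers are lowest on the PBS arrays.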

How the data were processed

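Lung RNA from 12 samples was hybridised to Agilent 1-colour mouse arrays. The deposited scanner files give a spot intensity made by Feature Extraction 10.7.3.1, per the file headers, with the background already subtracted. The deposited series table holds log2 values within 0.000176 of the same values computed here from all spots, and gave the same number of called members in each comparison; per the submitters' processing notes Partek was used. Control and outlier spots were left out, spots of a probe averaged, and log2 of the processed intensity taken minus the 75th percentile of each array. Probes were named through RefSeq accessions, kept where all 3 arrays of any group marked them as well above background (28334 probes), and the brightest probe stood for its gene. limma 3.58.1 (lmFit, eBayes; R 4.3.3) was fitted on all 12 arrays with a mean per group, 8 residual degrees of freedom, 2-sided, with Benjamini-Hochberg adjustment over all 21856 items. SEs and 95% intervals are from that fit; 3 arrays per group limit the precision, and an exact permutation test of 3 against 3 cannot go below 0.1. The script was tested on simulated data. In LPS/NNK against NNK it recovered 0% of simulated 1.5-fold and 2-fold changes, 78.5% at 4-fold and 95% at 8-fold. In the data themselves that comparison called 17.3% of all items, and Manf at a log2 difference of 0.86, under 2-fold. The simulated shares are therefore not the sensitivity of the real comparison. With 3 arrays per group, a member that was not called is not shown to be unchanged. Alternatives were other background corrections, scalings, filters, probe rules, blocks and left-out arrays. Normexp used the median spot signal, because the files have no mean signal column.

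Members, gene lists and tests were chosen with earlier results of these data known. Genes were named by rule: per comparison up to 6 called members in each direction with the smallest p, the members with the largest and smallest difference of each role in LPS/NNK against NNK, and up to 4 other pathway genes per comparison. Hspa5, Ddit3, Manf in LPS against NNK, Edem1 in that comparison, and the members described for LPS/NNK 2 were chosen after their values were seen. Promoter sequences are RefSeq's, build GRCm38.p6; 35 of the 40 members matched, and Manf, Hyou1, Sec61a1, Derl1 and Atf6 did not.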

Additional observations from a re-analysis of the deposited data

Results flagged for a closer look

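For 11 members the difference of LPS/NNK from NNK was not the same as that of LPS from PBS. The direct test was limma's interaction term, over 38 members among 21856 items. The first difference includes weekly dosing, which is not listed for NNK, so the test does not isolate LPS. The value is the log2 difference of LPS/NNK from NNK minus that of LPS from PBS. It was positive for Spcs2 at 1.67 ± 0.38 (SE), Dnajc3 at 1.55 ± 0.38, Selenos at 1.24 ± 0.38 and Ssr3 at 1.21 ± 0.39. It was negative for Edem2 at -2.50 ± 0.71, Hyou1 at -1.64 ± 0.46, Trib3 at -1.46 ± 0.41, Derl2 at -1.31 ± 0.37, Calr at -1.25 ± 0.37, Sdf2l1 at -1.11 ± 0.40 and Sel1l at -1.08 ± 0.28. Adjusted p ran from 0.00565 for Spcs2 to 0.0405 for Sdf2l1. The 11 of 38 stand beside 38.7% called over all items. All 11 use the PBS arrays; without PBS 1 and PBS 2, Spcs2 and Trib3 remained, and none of the 11 was called with normexp background correction.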

How the results depend on the processing

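Counts are of called members out of 38. With normexp, 0 were called in LPS/NNK against NNK (5 as reported), 1 in LPS against NNK (2), 4 in LPS against PBS (19), 7 in NNK against PBS (14), 7 in LPS/NNK against PBS (18) and 0 for the interaction (11). In the same order, all items called were 1.62% (17.3% as reported), 1.01% (6.2%), 18.9% (56%), 36.7% (51.5%), 29.5% (55.1%) and 0.229% (38.7%). No filter on dim probes gave 3 in LPS/NNK against NNK and 1 in LPS against NNK, with 7.63% and 2.9% of all items called. The mean of all probes gave 8 and 4, with 17.5% and 6.39%. The slide as a fixed effect gave 0 in LPS/NNK against NNK, 9 in NNK against PBS and 8 in LPS/NNK against PBS. Of all items, 11.9%, 30.4% and 39.9% were then called. A fit of the groups compared alone gave 1 in LPS against NNK, with 5.68% of all items called. Without PBS 1 and PBS 2 there were 6, 6 and 6 in the comparisons of LPS, NNK and LPS/NNK with PBS and 2 for the interaction. Leaving out each array in turn gave 1 to 10 in LPS/NNK against NNK, 0 to 6 in LPS/NNK against LPS, 0 to 2 in LPS against NNK, 13 to 21 in LPS against PBS, 9 to 13 in NNK against PBS, 13 to 16 in LPS/NNK against PBS and 8 to 14 for the interaction. In the same order, all items called ran from 7.21% to 26.6%, 0.357% to 22.1%, 2.72% to 9.66%, 46.7% to 53.1%, 39.6% to 47.1%, 46.6% to 54.3% and 28.5% to 45.6%. NNK against PBS fell to 9 members without NNK 2. With quantile normalization, 4 values that were called with or without it changed sign. These were Canx in LPS against PBS (-0.58), and in LPS/NNK against PBS Calr (-0.017), Hsp90b1 (-0.91) and Hspa5 (-0.99). Sign changes of values called in neither fit were not counted. Split by direction, quantile normalization gave 3 higher and 3 lower in LPS/NNK against NNK, and 7 and 6 for the interaction. The percentile over detected probes gave 8 and 6 for the interaction. In either direction, 16.5%, 40.6% and 40.4% of all items were called in these 3. Normexp moved the median of all items against PBS to 0.33 in LPS, 0.55 in NNK and 0.53 in LPS/NNK, and the percentile over detected probes to -0.34, -0.25 and -0.40. The cause of these changes was not tested.

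Same-numbered arrays of different groups correlated in their deviations from the group means at -0.15 to 0.41, over 0.1 in 3 of 9 pairs. The 45 other pairs ranged from -0.41 to 0.34. The labels state no pairing, and with so few arrays per group these correlations cannot settle whether the numbers pair them. With the replicate block, 5 members were called in LPS/NNK against NNK, 0 in LPS/NNK against LPS, 0 in LPS against NNK, 12 in LPS against PBS, 13 in NNK against PBS, 14 in LPS/NNK against PBS and 14 for the interaction. In the same order, 16.9%, 8.64%, 6.24%, 54%, 51.2%, 55.1% and 39.6% of all items were called.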
